A study of Mus musculus with 24 samples.

Results

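The genes Il6, Ptx3, Lif, Il15, Ccl2, Ccl7, Cxcl1, Cxcl5, Cxcl12, and Csf1 encode signals that muscle cells can release, and they are 10 of the 56941 genes listed for each library. The genes were chosen from earlier results on these same libraries, with their fold changes between stimulated and unstimulated muscle in view. Their fold changes and the counts of genes past a threshold are therefore given as a description, and the p-values of these 10 genes are left out. The lists of related genes and markers used below were also chosen with earlier results of these data known. Adjusted p-values printed for genes of those lists are therefore descriptions too, not independent support. Of the 10 genes, 10 passed the filter on low counts, which left 13315 genes for testing.

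The muscle was C2C12, a mouse myoblast line that fuses into contracting myotubes. In all 4 conditions the cells carried ChR2::tdTomato, a light-gated cation channel fused to a red fluorescent protein, and were differentiated on grooved fibrin hydrogels in DMEM with horse serum and IGF-1. Muscle was exercised with blue light for 60 min each day at 1, 4, or 10 Hz, and the control condition received no stimulation. Each condition had 6 libraries, described by the study as biological replicates, and all came from 1 engineered cell line, so the spread between libraries does not include differences between animals. The study describes spontaneous twitching in every condition, so the controls were unstimulated but not at rest. The labels describe poly(A) selection and state that low-input samples were ribodepleted instead, without saying which these were.

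The libraries held 8052369 to 18159144 estimated counts each. The summed level of 10 myotube markers ran from 11751 to 14858 CPM (counts scaled to a common library total after TMM adjustment) in controls, from 9895 to 17934 at 1 Hz, from 13653 to 16839 at 4 Hz, and from 10932 to 13652 at 10 Hz. Of these 10 markers, 1 fell at 1 Hz, and 1 rose and 1 fell at 4 Hz, by the edgeR threshold defined with the cytokine counts. Among all genes, 7.74% fell at 1 Hz, and 12.8% rose and 12.3% fell at 4 Hz. At 10 Hz, 0 of the 10 passed, beside 0.0376% of all genes, but 9 were lower, with a median log2(fold change) of -0.196. Of the 10, 4 had an unadjusted p under 0.05 in edgeR at 10 Hz, beside 1074 of the 13315 genes tested. The marker Casq1 was at 182 to 277 CPM in controls and 119 to 177 CPM at 10 Hz, without overlap. Myog, a myogenic transcription factor, was at 459 to 599 CPM in controls, 182 to 242 at 1 Hz, 193 to 217 at 4 Hz, and 438 to 507 at 10 Hz, so that it was below every control at 1 and 4 Hz. Mylpf, a fast myosin light chain, was at 1185 to 1497 CPM in controls and rose to 1569 to 2776 CPM at 4 Hz. All 6 libraries lay outside the control range on the same side for 14.1% of all genes at 1 Hz. That share was 27.6% at 4 Hz and 1.64% at 10 Hz. The part of these marker changes in the cytokine values was not tested. Of 12 leukocyte markers, 2 passed the filter, Cd68 and Cd14, which are not restricted to leukocytes. Tyrobp was at 0 counts in all 24 libraries, where 3 counts, the limit that a count of 0 allows, are 0.373 CPM of the unadjusted total in the shallowest library (counting error only), and Ptprc, the pan-leukocyte marker, stayed at or below 0.0998 CPM. Since RNA was taken in bulk, fewer cells expressing a gene and less of its RNA per cell cannot be told apart.

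Contracting skeletal muscle releases cytokines and chemokines, often called myokines, that act on the muscle itself, on its stem cells, and on other organs. Interleukin-6 and leukemia inhibitory factor signal through receptor complexes that share gp130 and activate JAK kinases and STAT factors. Chemokines of the CC and CXC families attract leukocytes through G protein-coupled receptors, and many are classical targets of NF-κB. Pentraxin 3, the product of Ptx3, is a long pentraxin that recognises microbes and damaged matrix.

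Sequence upstream of the cytokine genes is shown because several of them varied together between libraries, and because motifs of the factors that act on cytokine genes can be located in it. RefSeq promoters (build GRCm38.p6) were matched for 6 of the 10 genes, Il6, Ptx3, Lif, Cxcl1, Cxcl12, and Csf1. For Il15, Ccl2, Ccl7, and Cxcl5, no promoter was used. The 250 bases before the start site are printed for the 3 genes with the largest fold changes at 4 Hz, at chr5:30012864-30013113, chr3:66219637-66219886, and chr5:90890995-90891244, and for Lif, which changed the opposite way, at chr11:4257318-4257567, each on the plus strand and 5′ to 3′. Capitals mark matches to any of the 5 motifs named in the next paragraph.
Il6: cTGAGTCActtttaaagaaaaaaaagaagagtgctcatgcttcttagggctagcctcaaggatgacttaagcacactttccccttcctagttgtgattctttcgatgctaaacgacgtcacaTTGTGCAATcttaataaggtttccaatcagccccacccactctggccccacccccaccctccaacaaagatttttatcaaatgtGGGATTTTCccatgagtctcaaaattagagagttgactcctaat
Ptx3: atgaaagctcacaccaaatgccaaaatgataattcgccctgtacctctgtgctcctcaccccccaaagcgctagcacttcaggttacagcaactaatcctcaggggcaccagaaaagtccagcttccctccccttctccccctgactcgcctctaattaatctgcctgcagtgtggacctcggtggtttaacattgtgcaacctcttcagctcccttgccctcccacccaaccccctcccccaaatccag
Cxcl1: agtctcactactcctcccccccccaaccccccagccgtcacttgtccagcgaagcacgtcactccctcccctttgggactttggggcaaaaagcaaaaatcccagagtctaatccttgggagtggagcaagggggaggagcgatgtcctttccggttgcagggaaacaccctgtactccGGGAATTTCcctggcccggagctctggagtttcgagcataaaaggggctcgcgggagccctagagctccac
Lif: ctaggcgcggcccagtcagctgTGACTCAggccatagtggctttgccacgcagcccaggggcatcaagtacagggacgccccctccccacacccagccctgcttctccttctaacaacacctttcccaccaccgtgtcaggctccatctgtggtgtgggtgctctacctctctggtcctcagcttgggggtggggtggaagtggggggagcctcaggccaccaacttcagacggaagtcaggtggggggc

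The 5 motifs were searched on both strands over 300 bases, from 250 before to 50 after the start site, and no match overlapped a match of another motif. The NF-κB letters GGGANTTTC occur in 1.11% of the 32851 mouse promoters in the same table. They lie 44 to 36 bases before the Il6 start, 71 to 63 bases before the Cxcl1 start, and, on the opposite strand, 153 to 145 bases before the Csf1 start. The AP-1 letters TGANTCA, found in 7.81% of promoters, lie 249 to 243 bases before the Il6 start and 228 to 222 bases before the Lif start. The C/EBP letters TTNNGCAAT, found in 2.18% of promoters, lie 128 to 120 bases before the Il6 start. The STAT letters TTCNNNGAA (8.3% of promoters) and the cyclic AMP response element TGACGTCA (1.79%) matched none of the 6, and Ptx3 and Cxcl12 held no match to any of the 5. A match is a description of letters, not of binding, and the absence of one says only that these letters are not in this window. Thus an NF-κB match is present upstream of Il6 and Cxcl1, which had the largest fold changes at 4 Hz, and also upstream of Csf1, whose level hardly differed.

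Il6, which encodes the best known myokine, lies on chromosome 5 (GRCm39, 30218112 to 30224979, plus strand). Its level in controls was 2.93, 3.67, 1.42, 3.06, 2.11, and 3.57 CPM in replicates 1 to 6. At 1 Hz the 6 libraries held 8.90, 10.7, 17.5, 12.6, 7.87, and 15.6 CPM, and at 4 Hz they held 19.1, 12.7, 24.5, 12.8, 17.4, and 12.2 CPM. Every library at 1 and 4 Hz was above the highest control, with no overlap. At 10 Hz the libraries held 2.55, 1.43, 8.0, 3.39, 6.26, and 3.72 CPM, of which 3 were above all controls and the others within the control range. The means were 2.80 ± 0.874 CPM in controls, 12.2 ± 3.78 CPM with 1 Hz, 16.4 ± 4.86 CPM with 4 Hz, and 4.23 ± 2.45 CPM with 10 Hz (SD, n = 6 each). The fitted log2(fold change) against control was 2.11 (SE 0.298) at 1 Hz, 2.52 (SE 0.298) at 4 Hz, and 0.56 (SE 0.327) at 10 Hz, where the 4 Hz value is 5.74-fold. Il6 overlaps Gm42450 on the opposite strand, and that gene had 0 counts in all libraries.

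Ptx3 lies on chromosome 3 (GRCm39, 66127331 to 66133226, plus strand), and it is the secreted pattern recognition protein of the group. In controls it held 1.51, 1.75, 1.24, 1.02, 0.929, and 1.78 CPM, from only 11 to 30 counts per library. It held 4.39, 5.16, 6.75, 6.53, 2.59, and 3.58 CPM at 1 Hz and 5.85, 3.69, 5.98, 6.56, 5.95, and 4.41 CPM at 4 Hz. As for Il6, all 12 of these libraries were above the highest control. At 10 Hz the libraries held 2.07, 1.66, 4.89, 2.45, 3.24, and 1.69 CPM, so that 4 of 6 were above all controls. The log2(fold change) was 1.81 (SE 0.262) at 1 Hz, 1.96 (SE 0.263) at 4 Hz, and 0.93 (SE 0.279) at 10 Hz, the largest value of the 10 genes at 10 Hz. Ptx3 overlaps Veph1 on the opposite strand, which reached at most 0.299 CPM.

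Lif encodes leukemia inhibitory factor, a gp130 cytokine known for promoting myoblast proliferation, and it lies on chromosome 11 (GRCm39, 4207557 to 4222514, plus strand). Unlike Il6 and Ptx3, it was lower after stimulation at 1 and 4 Hz. Controls held 7.13, 11.5, 9.33, 9.96, 9.97, and 6.29 CPM, and the 1 Hz libraries held 10.3, 5.16, 7.85, 4.88, 3.04, and 2.60 CPM. The 4 Hz libraries were tightly grouped at 4.71, 4.39, 4.45, 4.58, 4.90, and 3.95 CPM. All 6 libraries at 4 Hz and 4 of 6 at 1 Hz were below the lowest control, while the 1 Hz group spread over both ranges. At 10 Hz, Lif was at 6.18 to 9.50 CPM, with 1 library below all controls. The log2(fold change) was -0.72 (SE 0.219) at 1 Hz, -1.02 (SE 0.227) at 4 Hz, and -0.14 (SE 0.212) at 10 Hz.

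Il15 encodes a cytokine that supports lymphocytes and is abundant in skeletal muscle, and it lies on chromosome 8 (GRCm39, 83054226 to 83129874, minus strand). It held 7.88, 6.53, 4.80, 4.66, 6.08, and 6.76 CPM in controls and 9.25, 10.8, 10.4, 14.4, 7.15, and 13.1 CPM at 1 Hz. At 4 Hz it held 13.5, 8.98, 17.4, 11.8, 11.1, and 9.88 CPM. The 4 Hz libraries did not overlap the controls, and at 1 Hz replicate 5 alone was within the control range. At 10 Hz the level was 2.61 to 6.78 CPM, with 2 libraries below all controls and none above. The log2(fold change) was 0.84 (SE 0.194) at 1 Hz, 0.97 (SE 0.195) at 4 Hz, and -0.31 (SE 0.208) at 10 Hz. Il15 overlaps 9530004M14Rik on the opposite strand, which had 0 counts in all libraries.

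**Figure D1:**
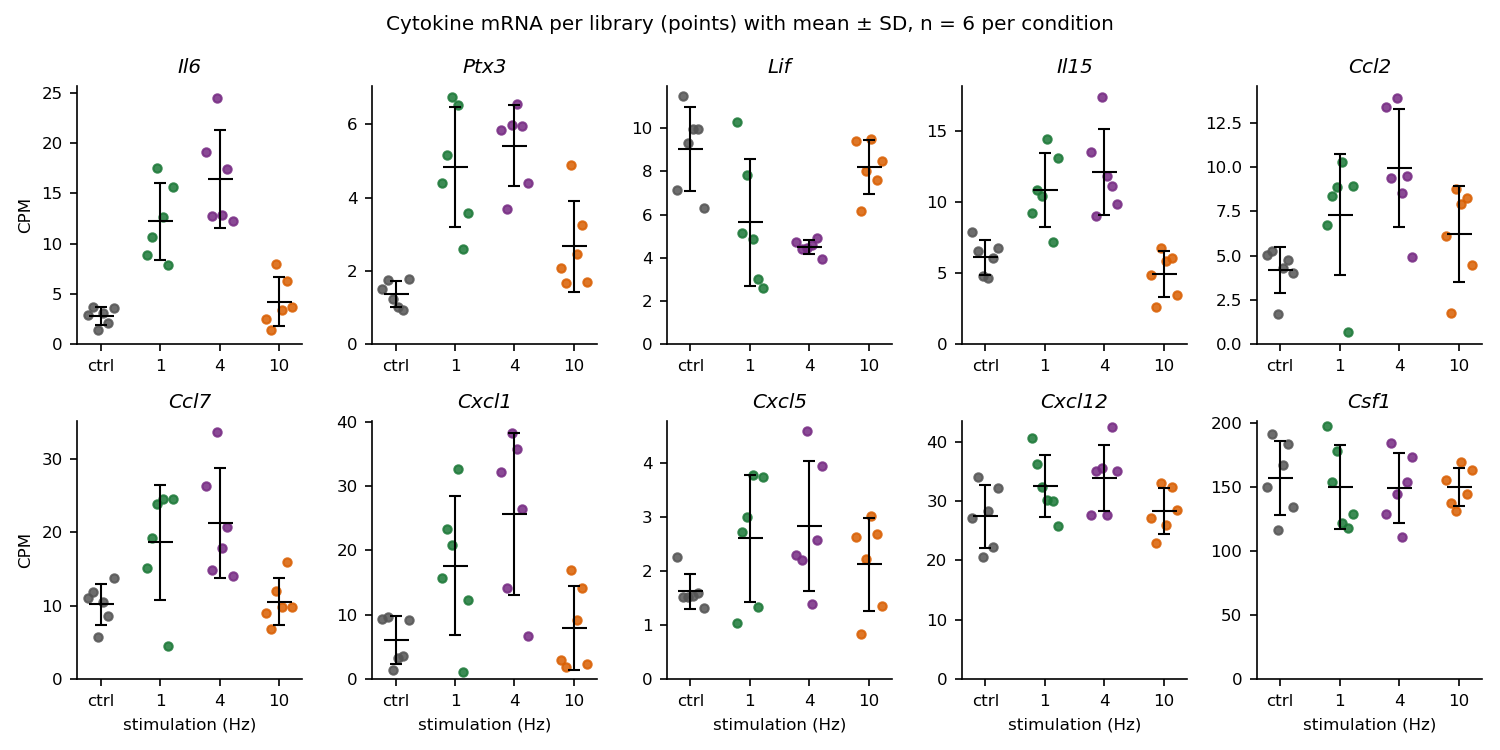
Level of the 10 cytokine genes in CPM (vertical axes, from 0, a separate scale for each gene) in the control and at 1, 4, and 10 Hz, with 1 point per library and the mean ± SD of 6 libraries as bars. Il6 and Ptx3 at 1 and 4 Hz lie above every control library, Lif at 4 Hz lies below every control library, and 1 library at 1 Hz is near 0 for Ccl2 and Cxcl1.

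Ccl2 and Ccl7 are CC chemokines that attract monocytes, and they are neighbours on chromosome 11 (GRCm39, 81926397 to 81928279 and 81936532 to 81938351, plus strand), 8.3 kb apart. Ccl2 held 5.03, 5.25, 1.69, 4.28, 4.73, and 4.04 CPM in controls, 6.70, 8.37, 8.85, 10.3, 0.715, and 8.94 CPM at 1 Hz, and 13.4, 9.38, 13.9, 8.55, 9.46, and 4.94 CPM at 4 Hz. At each of the 2 frequencies, 5 of 6 libraries were above all controls, and 1 Hz replicate 5 was below all of them. Ccl7 held 11, 11.8, 5.69, 10.5, 8.53, and 13.7 CPM in controls and 15.1, 19.2, 23.9, 24.5, 4.47, and 24.5 CPM at 1 Hz. At 4 Hz, Ccl7 held 26.3, 14.8, 33.7, 17.9, 20.7, and 14.1 CPM. For Ccl7 too, the 4 Hz libraries were all above the controls, and 1 Hz replicate 5 was below them. At 10 Hz, Ccl2 ran from 1.78 to 8.78 CPM, with 4 libraries above all controls, and Ccl7 from 6.77 to 16.0 CPM, with 1 above. Ccl2 had a log2(fold change) of 0.81 (SE 0.392) at 1 Hz, 1.22 (SE 0.391) at 4 Hz, and 0.57 (SE 0.40) at 10 Hz. That of Ccl7 was 0.87 (SE 0.303), 1.04 (SE 0.305), and 0.04 (SE 0.314), respectively.

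Cxcl1 and Cxcl5 are CXC chemokines that attract neutrophils, and both lie on chromosome 5 (GRCm39, 91039094 to 91040974 and 90907186 to 90909483, plus strand), 129.6 kb apart. Cxcl1 held 9.39, 9.68, 1.42, 3.26, 3.63, and 9.21 CPM in controls, so the controls themselves were widely spread. It held 15.7, 23.4, 20.8, 32.7, 1.07, and 12.3 CPM at 1 Hz and 32.2, 14.2, 38.3, 35.8, 26.4, and 6.77 CPM at 4 Hz. At each of these frequencies, 5 of 6 libraries exceeded all controls. The exceptions were 1 Hz replicate 5, below every control, and 4 Hz replicate 6, within their range. At 10 Hz, Cxcl1 ran from 1.90 to 16.9 CPM, with 2 libraries above all controls. Cxcl1 had a log2(fold change) of 1.54 (SE 0.625) at 1 Hz, 2.05 (SE 0.627) at 4 Hz, and 0.34 (SE 0.662) at 10 Hz, with the largest standard errors of the 10 genes. Cxcl5 was low, at 1.32 to 2.26 CPM in controls, 1.04 to 3.78 CPM at 1 Hz, 1.39 to 4.59 CPM at 4 Hz, and 0.832 to 3.01 CPM at 10 Hz. Its groups overlapped, with 4 of 6 libraries above all controls at 1 Hz and at 4 Hz and 1 at 1 Hz below them, and its log2(fold change) was 0.71 (SE 0.308), 0.80 (SE 0.312), and 0.40 (SE 0.318) at 1, 4, and 10 Hz. Cxcl5 and Csf1 overlap Gm72413 and Gm40121 on the opposite strand, which were not analysed here.

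At 1 and 4 Hz, Cxcl12 and Csf1 had the smallest fold changes of the 10 genes. Cxcl12, a chemokine that guides progenitor cells through Cxcr4, lies on chromosome 6 (GRCm39, 117144945 to 117158328, plus strand) and ran from 20.5 to 34.0 CPM in controls, 25.8 to 40.6 at 1 Hz, 27.6 to 42.4 at 4 Hz, and 22.9 to 33.1 at 10 Hz. Its ranges overlapped in all 4 conditions. Its log2(fold change) was 0.24 (SE 0.129) at 1 Hz, 0.30 (SE 0.129) at 4 Hz, and 0.05 (SE 0.130) at 10 Hz. At 4 Hz the sign of this value turned on the TPM scale, which divides by transcript length, to -0.06 on log2(TPM + 1). Csf1 encodes macrophage colony-stimulating factor and lies on chromosome 3 (GRCm39, 107648364 to 107667806, minus strand). Its mean was 157 ± 29.2 CPM in controls, 150 ± 32.4 CPM with 1 Hz, 149 ± 27.3 CPM with 4 Hz, and 150 ± 15.1 CPM with 10 Hz (SD, n = 6 each). Csf1 had a log2(fold change) of -0.07 at each of the 3 frequencies (SE 0.136), with an approximate 95% interval of -0.34 to 0.20 at 4 Hz.

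A gene counted as past the threshold where edgeR gave an adjusted p under 0.05 together with a log2(fold change) beyond 0.5 in size. By this rule, 4 of the 10 genes were higher at 1 Hz, Il6, Ptx3, Il15, and Ccl7, beside 7.19% of all genes tested. Only Lif was lower, beside 7.74% of all genes. At 4 Hz, 7 were past it in the higher direction, with Ccl2, Cxcl1, and Cxcl5 joining the 4 found at 1 Hz, beside 12.8% of all genes, and Lif in the lower direction, beside 12.3%. Since the genes were chosen on these contrasts, nothing is read from those counts. At 1 Hz the count depended on replicate 5 of that condition: without it, 8 of 10 genes were past the threshold, with Ccl2, Cxcl1, and Cxcl5 added. The count over all genes also rose without it, from 1988 of 13315 to 2436 of 13401. Ccl7 at 1 Hz and Cxcl5 at 4 Hz kept their calls in only 8 of 19 alternative settings each. The 4 Hz call of Ccl2 was lost on log2(TPM + 1) and log2(TPM + 0.1), and that of Cxcl1 on log2(TPM + 0.1). The median log2(fold change) of the 10 genes was 0.822 at 1 Hz and 1.01 at 4 Hz, where that of all genes was 0.0411 and 0.0606.

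At 10 Hz, 0 of the 10 genes were past the threshold, beside 0.0376% of all genes. In edgeR, 5 of the 13315 genes were past it and 1074 had an unadjusted p under 0.05 at this frequency. DESeq2 called 22 of 27811 genes and 0 of the 10. On log2(TPM + 1), limma called 0 of all 13422 genes, so its 0 of the 10 says nothing particular about them. Of the 10 genes, 1 was among the 1074. The median log2(fold change) of the 10 genes was 0.193, beside 0.00668 for all genes. Counted by ranges alone, all 6 libraries were above every control for 2 genes at 1 Hz (Il6 and Ptx3) and for 4 at 4 Hz (Il6, Ptx3, Il15, and Ccl7), and below every control for 1 at 4 Hz (Lif). Among all genes, all 6 libraries lay on the same side outside the control range for 14.1% at 1 Hz, 27.6% at 4 Hz, and 1.64% at 10 Hz, and none of the 10 did so at 10 Hz.

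**Figure D2:**
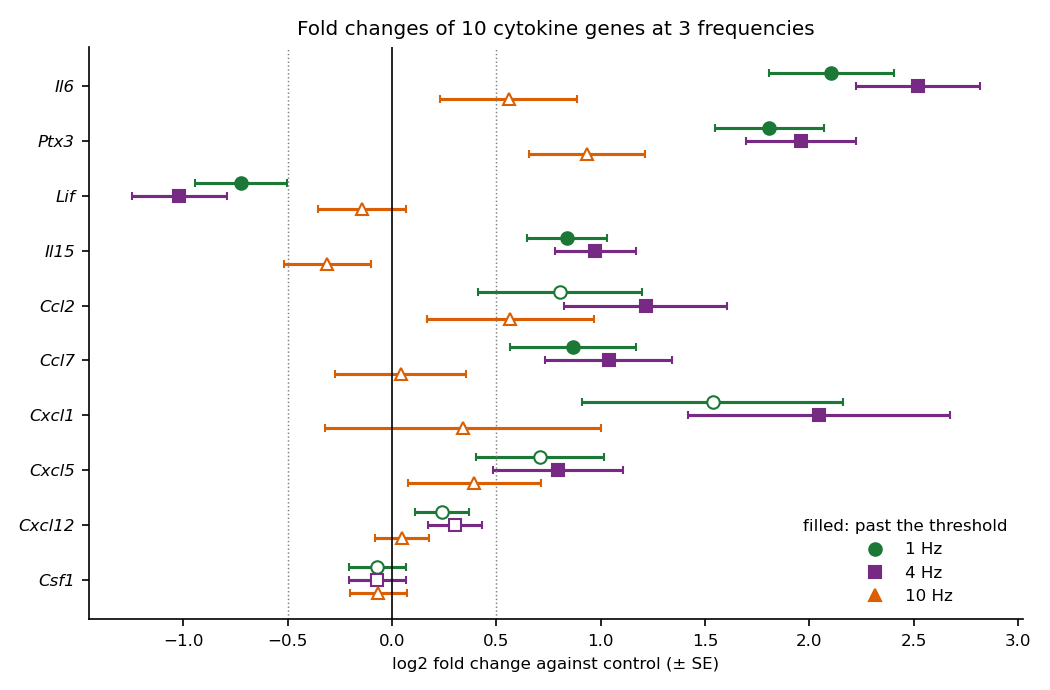
Fitted log2(fold change) against control with its SE (horizontal axis) for the 10 cytokine genes at 1 Hz (circles), 4 Hz (squares), and 10 Hz (triangles), where dotted lines mark an absolute value of 0.5 and filled symbols are past the threshold. Il6 reached 2.11 and 2.52 at 1 and 4 Hz, Lif reached -0.72 and -1.02, and the 10 Hz symbols are all open.

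Comparing frequencies directly, none of the 10 genes was past the threshold between 4 and 1 Hz, beside 0% of all genes. In that comparison 1465 genes had an unadjusted p under 0.05 in edgeR, and DESeq2 called 2 genes overall and 0 of the 10. The log2(fold change) of Il6 at 4 Hz against 1 Hz was 0.42 (SE 0.263), with an approximate 95% interval of -0.10 to 0.93, and that of Lif was -0.30 (SE 0.239). The comparisons of 10 Hz with 1 Hz and with 4 Hz share the 10 Hz libraries. Against 1 Hz, 4 genes were past the threshold in the lower direction (4.99% of all genes) and 0 in the higher (5.85% of all genes), while log2(TPM + 1) gave 3 lower and 1 higher (Lif). The 4 were Il6 at -1.55 (SE 0.293), Il15 at -1.15 (SE 0.202), Ptx3 at -0.87 (SE 0.249), and Ccl7 at -0.83 (SE 0.307). Against 4 Hz, 5 were lower, beside 10.6% of all genes, namely Il6 at -1.96 (SE 0.293), Cxcl1 at -1.71 (SE 0.627), Il15 at -1.28 (SE 0.204), Ptx3 at -1.03 (SE 0.251), and Ccl7 at -1.0 (SE 0.309). Lif was higher at 0.88 (SE 0.232), beside 10.6% of all genes in the higher direction.

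The order of the 10 genes by level can be read per transcript length, in TPM. In controls, Csf1 was the most abundant at 67.6 ± 11.3 TPM (SD, n = 6), clear of Ccl7 at 25.2 ± 6.5 and Cxcl12 at 21.7 ± 3.75, whose ranges overlapped. Cxcl1 at 11.8 ± 7.08, Ccl2 at 10.1 ± 2.99, and Il15 at 10.0 ± 2.01 followed, also overlapping. Il6 at 4.93 ± 1.47 and Lif at 4.46 ± 1.1 overlapped with each other and lay below Il15. Cxcl5 at 1.75 ± 0.317 and Ptx3 at 1.21 ± 0.306 were lowest. At 4 Hz, Il6 moved from 7th to 4th place at 24.5 ± 5.16 TPM and overlapped with Cxcl1 at 39 ± 16.8 and Cxcl12 at 21.0 ± 5.52, while Lif moved to the last place at 1.89 ± 0.472, overlapping with Cxcl5 at 2.40 ± 0.876. At 10 Hz the order was close to that of controls, with Csf1 at 65.4 ± 11.6, Il6 at 7.46 ± 4.23, and Lif at 4.3 ± 0.884 TPM.

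Libraries of the same condition differed in these genes together. After the mean of each condition was taken away from log2 CPM, the 15 pairs among Il6, Ptx3, Il15, Ccl2, Ccl7, and Cxcl1 all had a positive Pearson r over the 24 libraries, from 0.628 to 0.904. The highest was that of the neighbours Ccl2 and Ccl7, 0.904, and that of Il6 with Ptx3 was 0.69. These are descriptions of genes that share libraries, depth, and scaling. The 6 were picked after the values were seen, and over all 45 pairs of the 10 genes the median r was 0.397, with 42 positive. For comparison, the r of Il6 with all 13314 other genes had a median of 0.0192, with -0.584 and 0.571 as the 5th and 95th percentiles. The 95th percentile was 0.595 for Ccl2, 0.616 for Ptx3, 0.655 for Ccl7, 0.659 for Cxcl1, and 0.674 for Il15. Without the 2 libraries farthest from the median of the first gene of a pair, the r of Il6 with Ptx3 was 0.565 and that of Ptx3 with Ccl2, the lowest of the 15, was 0.513. Lif had an r of 0.0395 with Il6.

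The libraries that stood lowest in these 6 genes were 1 Hz replicate 5, with a mean deviation of -1.63 on the log2 scale, 10 Hz replicate 2, with -1.03, control replicate 3, with -0.81, and 4 Hz replicate 6, with -0.67. The highest was 10 Hz replicate 3, with 0.83. In 1 Hz replicate 5, Cxcl1 deviated by -3.33 while the smallest deviation among the 6 was -0.55. Il6 was nevertheless at 7.87 CPM in that library, above the highest control at 3.67.

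**Figure D3:**
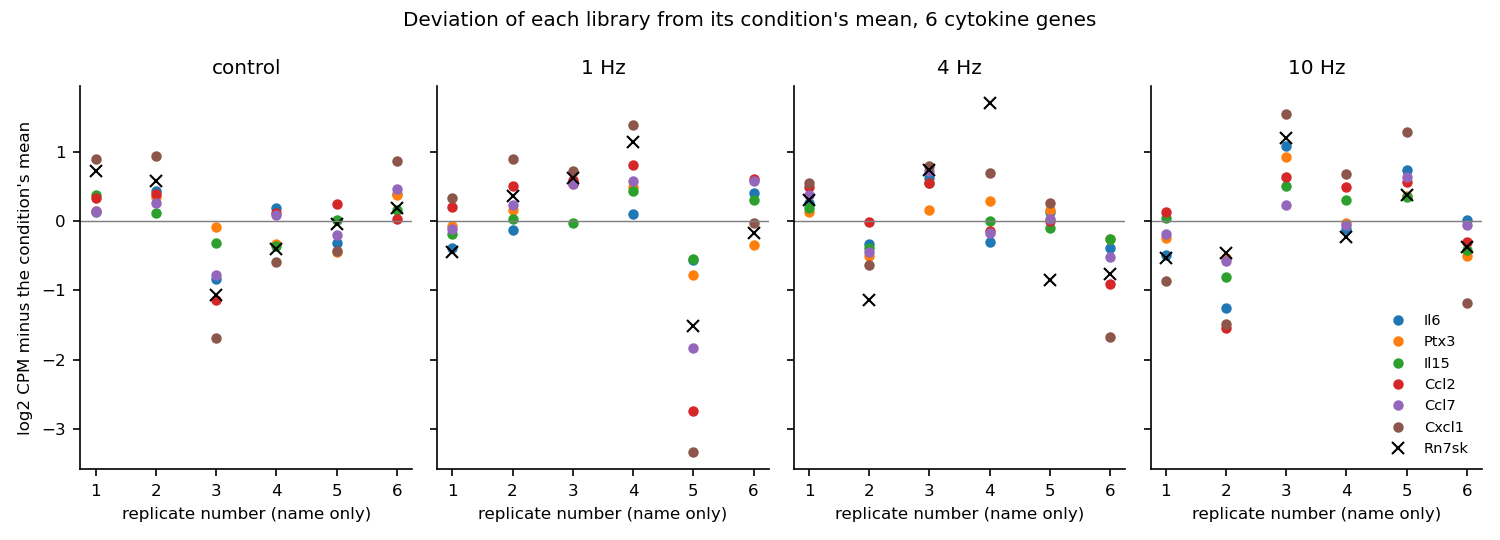
Deviation of log2 CPM from the mean of the library's own condition (vertical axis) for 6 cytokine genes (coloured points) and for Rn7sk (crosses), by replicate (horizontal axis, where the numbers only name libraries), in 4 conditions. The 6 genes tend to lie on the same side of 0 within a library, with 1 Hz replicate 5 lowest and Cxcl1 there at -3.33.

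RNAs without a poly(A) tail also differed between the conditions. Rn7sk, the 7SK small nuclear RNA, held 5.27 ± 2.23 CPM in controls, 15.7 ± 8.92 CPM with 1 Hz, 17.6 ± 14.7 CPM with 4 Hz, and 5.20 ± 3.05 CPM with 10 Hz (SD, n = 6 each). Its log2(fold change) was 1.58 (adjusted p = 0.019 in edgeR) at 1 Hz and 1.72 (adjusted p = 0.0079) at 4 Hz. Of 10 genes listed for such RNAs, 7 passed the filter. Of these, 4 rose at 1 Hz and at 4 Hz (Rmrp, Rpph1, Rn7s1, and Rn7sk), and 1, H1f4, fell at 1 Hz. Rn7s2 was not past the threshold, and each of Rn7s1 and Rn7s2 was at 0 counts in libraries where the other was not. Among all genes, 7.19% rose and 7.74% fell at 1 Hz, and 12.8% rose and 12.3% fell at 4 Hz. The summed level of the list was 87.5 to 144 CPM in controls, 123 to 281 at 1 Hz, 109 to 468 at 4 Hz, and 81.3 to 123 at 10 Hz. Much of the control sum was the histone gene H2bc4, at 66.4 to 83.4 CPM in controls and 60.4 to 102 CPM over all 24 libraries. The sum therefore does not give the size of the shift in the other RNAs. Within conditions, the r of Rn7sk was 0.809 with Cxcl1, 0.778 with Ptx3, 0.696 with Il15, and 0.571 with Il6. The part of this shift in the cytokine values was not tested. The highest Rn7sk among controls was 8.13 CPM, and the highest among controls and 10 Hz was 11 CPM, in 10 Hz replicate 3. At or below 11 CPM were 2 libraries at 1 Hz (replicates 1 and 5) and 3 at 4 Hz (replicates 2, 5, and 6). Of the 1 Hz libraries, replicate 1 held 9.83 CPM of Rn7sk, above every control, and replicate 5 alone was within the control range. The values of the 5 libraries are a description, and no test was made of them. Which libraries were ribodepleted is not given, so this cut does not hold library preparation constant. Il6 in these libraries was 7.87 to 8.90 CPM at 1 Hz and 12.2 to 17.4 CPM at 4 Hz, above every control. In 10 Hz replicate 3 itself, Il6 was at 8.0 CPM, within the range of those 1 Hz libraries. Ptx3 was 2.59 to 4.39 and 3.69 to 5.95 CPM, above every control, while 10 Hz replicate 3 held 4.89 CPM, more than both 1 Hz libraries. The other 4 of the 6 genes that varied together overlapped the controls at 1 Hz, with Il15 at 7.15 to 9.25, Ccl2 at 0.715 to 6.70, Ccl7 at 4.47 to 15.1, and Cxcl1 at 1.07 to 15.7 CPM. At 4 Hz, Ccl2 at 4.94 to 9.46 and Cxcl1 at 6.77 to 26.4 CPM overlapped the controls, and Il15 at 8.98 to 11.1 and Ccl7 at 14.1 to 20.7 CPM did not.

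Markers of mononucleate cells, which also secrete cytokines, were measured as well. The summed level of 10 such markers was 1099 to 1661 CPM in controls, 1252 to 1950 at 1 Hz, 1386 to 1806 at 4 Hz, and 1417 to 1879 at 10 Hz. Of 9 that passed the filter, 2 rose and 2 fell at 1 Hz, with Myf5 at 1.32 and Ly6a at 0.66 against Pax7 at -1.58 and Col1a1 at -0.70. At 4 Hz, 2 rose and 3 fell, the latter being Pax7, Col1a1, and the proliferation marker Mki67. The shares of all genes were 7.19% higher and 7.74% lower at 1 Hz, and 12.8% and 12.3% at 4 Hz. Their part in the cytokine values was not tested.

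Of 17 receptor genes for these and related cytokines, 11 passed the filter. By level in controls, gp130 (Il6st) was highest at 80.2 ± 10.6 TPM, next to the TNF receptor Tnfrsf1a at 78.4 ± 4.59. The ligand-binding chains of the gp130 family were lower, with Il11ra1 at 26.4 ± 3.48, Osmr at 13.5 ± 1.86, Lifr at 8.98 ± 1.72, and Il6ra at 5.52 ± 0.522 TPM (SD, n = 6 each). Both receptors of Cxcl12 were present, Ackr3 at 28.8 ± 3.81 and Cxcr4 at 20.9 ± 3.69 TPM, and Il1r1 was at 8.14 ± 0.861. The IL-15 receptor chains were low, with Il2rg at 2.52 ± 0.997, Il2rb at 0.479 ± 0.268, and Il15ra at 0.386 ± 0.153. The receptors that leukocytes use for the chemokines were near or at 0: Ccr2 and Ccr3 had 0 counts in all libraries, and Cxcr2, Ccr1, and the Csf1 receptor Csf1r stayed at or below 0.157, 0.279, and 0.294 TPM. Thus transcripts for Ccl2, Ccl7, Cxcl1, and Cxcl5 were measured in muscle where those of their usual receptors were barely detected.

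Of the 11 receptors, 1 rose at 1 Hz, beside 7.19% of all genes, and 1 fell at 4 Hz, beside 12.3%. At 1 Hz, Il2rg rose, with a log2(fold change) of 0.51 (SE 0.203, adjusted p = 0.049 in edgeR), a call that held in 3 of 19 alternative settings. At 4 Hz, Cxcr4 fell, with -0.52 (SE 0.151, adjusted p = 0.0058). Il6ra was at -0.11 and 0.06 and Il6st at -0.04 and 0.06 at 1 and 4 Hz, and neither was past the threshold. Osmr was at 0.35 (adjusted p = 0.026) and 0.49 (adjusted p = 0.0017), under the threshold on size. At 10 Hz, 0 of the 11 passed. The median log2(fold change) of the 11 was -0.0344 at 1 Hz and 0.0621 at 4 Hz.

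In the JAK-STAT list, which covers kinases, STAT factors, feedback inhibitors, and targets downstream of gp130, 3 of 19 tested genes rose and 1 fell at 1 Hz, and 4 rose and 0 fell at 4 Hz. Of all genes, 7.19% rose and 7.74% fell at 1 Hz, and 12.8% and 12.3% did so at 4 Hz. The 19 genes had medians of 0.0914 and 0.176 on the log2 scale. Socs1, a feedback inhibitor, rose by 0.88 (SE 0.257, adjusted p = 0.0096) at 1 Hz and by 1.14 (SE 0.258, adjusted p = 7.2e-04) at 4 Hz. Cebpd, a transcription factor induced by interleukin-6, rose by 0.63 (SE 0.184, adjusted p = 0.0095) and 0.96 (SE 0.184, adjusted p = 1.3e-04). Its libraries held 7.7 to 11.5 CPM in controls and 14.2 to 27.0 CPM at 4 Hz, without overlap. On log2(TPM + 1), the 1 Hz calls of Socs1 and Cebpd were lost and their 4 Hz calls held. Pim1, a kinase induced by STAT factors, rose by 1.02 (adjusted p = 0.039) and 1.22 (adjusted p = 0.011). Socs3, the inhibitor most closely tied to gp130, reached 0.20 at 1 Hz (adjusted p = 0.33) and rose by 0.52 at 4 Hz (adjusted p = 0.01), where its call held in 7 of 19 settings. Stat5a fell by 0.62 on the log2 scale (SE 0.103, adjusted p = 5.4e-05) at 1 Hz, with all 6 libraries below the controls. Stat3 itself was at 0.15 at 1 Hz and at 4 Hz, and did not pass.

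In the NF-κB list of 26 genes, all of which passed the filter, 1 rose at 1 Hz and 5 rose and 1 fell at 4 Hz, beside 7.19% of all genes that rose at 1 Hz and 12.8% that rose and 12.3% that fell at 4 Hz. The list had medians of -0.0224 and -0.00316 on the log2 scale. Zfp36l1, which promotes decay of cytokine mRNAs, rose by 0.79 (SE 0.233, adjusted p = 0.011) at 1 Hz and by 0.92 (SE 0.234, adjusted p = 0.0025) at 4 Hz. Its call at 1 Hz was lost on log2(TPM + 1). Rel, an NF-κB subunit, rose by 0.72 (SE 0.129, adjusted p = 6.8e-05) at 4 Hz, from 9.86 to 16.3 CPM in controls to 17.1 to 26.2 CPM. On log2(TPM + 1) the value of Rel was 0.30 and the call was lost. Map3k8 (1.16), Zfp36 (0.86), and the inhibitor Nfkbia (0.52) were the other 3 that rose. Chuk, the IKKα kinase, fell by 0.54 on the log2 scale (SE 0.0953, adjusted p = 5.3e-05) at 4 Hz. At 10 Hz, 0 passed.

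Among 36 other ligands, 15 passed the filter, of which 2 rose and 2 fell at 1 Hz, and 3 rose and 2 fell at 4 Hz. The shares of all genes were 7.19% and 7.74% at 1 Hz, and 12.8% and 12.3% at 4 Hz. The 15 had medians of 0.0079 and -0.0742 on the log2 scale. Clcf1, which encodes cardiotrophin-like cytokine factor, was at 55.5 to 68.8 CPM in controls, 31.7 to 43.0 at 1 Hz, 31.7 to 35.4 at 4 Hz, and 56.5 to 67.2 at 10 Hz. It fell by 0.76 on the log2 scale (SE 0.076, adjusted p = 4.7e-08) at 1 Hz and by 0.91 (SE 0.0769, adjusted p = 1.6e-09) at 4 Hz, with no overlap with controls. Clcf1 signals through gp130, as do Lif and Ctf1. Ctf1, which encodes cardiotrophin 1, rose by 0.70 (adjusted p = 0.0099) at 4 Hz, but its value was 0.18 on log2(TPM + 1), where the call was lost. Cntf fell by 0.97 on the log2 scale (adjusted p = 0.043) at 4 Hz, and its call held in 7 of 19 settings. Il1a, an upstream inducer of Il6 and chemokines, rose by 1.03 (adjusted p = 0.023) at 1 Hz and by 1.23 (adjusted p = 0.0052) at 4 Hz from a low level of 0.267 to 0.758 CPM in controls. The monocyte attractant Ccl8 rose by 0.98 (adjusted p = 0.002) at 4 Hz, Il18 rose by 0.60 (adjusted p = 0.042) at 1 Hz, and Il34 fell by 0.51 on the log2 scale (adjusted p = 0.016) at 1 Hz. Osm, Cxcl2, and Cxcl3 had 0 counts in all libraries, and Tnf and Csf2 stayed at or below 0.929 and 0.277 TPM.

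Ptx3 belongs to a family that includes acute phase proteins made by the liver. Of 20 other pentraxin and acute phase genes, 11 passed the filter, and only C3 was past the threshold, in the lower direction at 1 Hz, at -0.68 (SE 0.134, adjusted p = 3.4e-04), beside 7.74% of all genes. At 4 Hz the value of C3 was -0.08, and 0 of the 11 were past the threshold in edgeR. Of the 11, 5 had an unadjusted p under 0.05 in edgeR, beside 7620 of the 13315 genes tested. The median log2(fold change) of the 11 was 0.0471 at 1 Hz and 0.154 at 4 Hz. The short pentraxins Crp and Apcs stayed at or below 0.0938 and 0.199 TPM, and the long pentraxin Nptx2 had 0 counts in all libraries.

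In all, of 119 genes in the 5 lists, 82 were tested, of which 7 rose and 4 fell at 1 Hz (7.19% and 7.74% among all genes), and 12 rose and 4 fell at 4 Hz (12.8% and 12.3%). At 10 Hz, 0 of the 82 were past the threshold in edgeR, beside 0.0376% of all genes. DESeq2 also called 0 of them, beside 22 of 27811 genes. Of the 82, 6 had an unadjusted p under 0.05 in edgeR, beside 1074 of the 13315 genes tested. The calls of Pim1 and Il18 at 1 Hz and of Nfkbia at 4 Hz held in 8, 7, and 7 of 19 alternative settings. The split by direction depended on the scale, since log2(TPM + 1) gave 0 higher and 8 lower at 1 Hz and 6 higher and 15 lower at 4 Hz. There, all tested genes had medians of -0.144 (1 Hz) and -0.209 (4 Hz). The log2(TPM + 1) values at 1 and 4 Hz were 0.39 and 0.51 for Socs1, 0.28 and 0.53 for Cebpd, and -0.94 and -1.17 for Clcf1. On that scale the 1 Hz calls of Socs1, Cebpd, and Zfp36l1 were lost, while their 4 Hz calls and both calls of Clcf1 held. Every called gene of the lists kept its sign in all settings, so the sign set none of them apart.

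**Figure D4:**
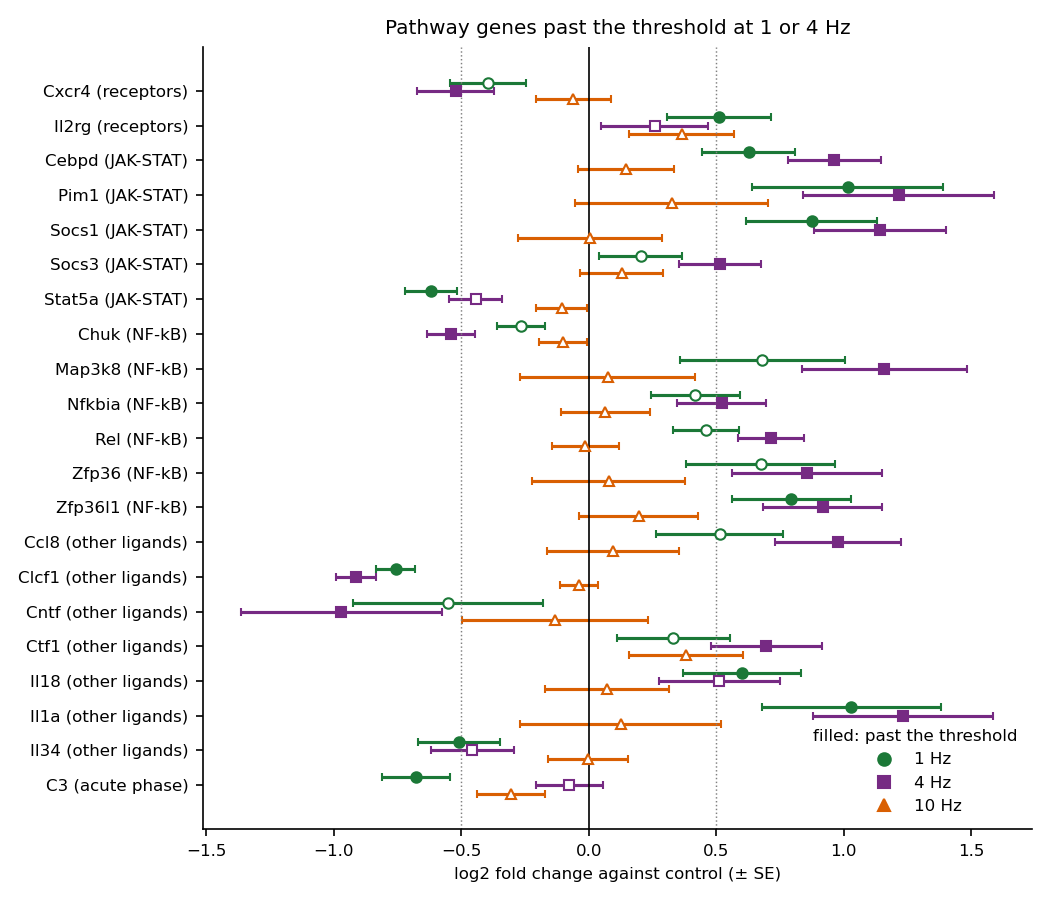
Fitted log2(fold change) against control with its SE (horizontal axis) for the receptor, JAK-STAT, NF-κB, ligand, and acute phase genes past the threshold at 1 or 4 Hz, drawn at 1 Hz (circles), 4 Hz (squares), and 10 Hz (triangles), with filled symbols past the threshold. Clcf1 lies at -0.76 and -0.91 at 1 and 4 Hz with the smallest bars, and every 10 Hz symbol is open.

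The genes whose log2 CPM followed Il6 most closely over all 24 libraries were Gorab (Pearson r 0.971), Msmo1 (0.958), Ypel4 (0.956), Cdkn1b (0.948), and Sp8 (0.947). For Ptx3 they were Rbm39 (0.946), Pip4p1 (0.937), Agpat4 (0.935), H2-D1 (0.935), and Ypel4 (0.934). With condition means removed, Gorab still had an r of 0.883 with Il6, and Agpat4 had 0.841 with Ptx3. Ypel4 stood in both lists, with a log2(fold change) of 1.71 at 1 Hz and 2.12 at 4 Hz. The 24 points share the split between conditions, and no test was made of these values.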

How the data were processed

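RNA-seq was made from 24 libraries of C2C12 muscle, 6 each of control, 1, 4, and 10 Hz. The authors deposited estimated counts and TPM per gene, which came from the nf-core/rnaseq workflow with Salmon on GRCm39. The submitters' processing notes also list STAR, BWA 0.7.12-r1039, and bedtools 2.25.0. TPM is divided by transcript length and scaled to the same total in each library by the authors. Whether counting used strand is not given in the sources used here.

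Estimated counts, of which 6.15% were not whole (tolerance 0.001), were rounded and filtered with filterByExpr (minimum count 10, total 15), which left 13315 genes. The edgeR 4.0.16 quasi-likelihood test (R 4.3.3) with TMM was fitted on all 4 conditions without a replicate block, and p-values were adjusted by Benjamini-Hochberg over all genes tested. CPM values divide by the library total times its TMM factor. Intervals are the estimate plus and minus a normal quantile times the SE. Alternatives used DESeq2 1.42.0 and limma 3.58.1 on log2(TPM + 1) and log2(TPM + 0.1). The edgeR fit was tested on simulated data, where 99.5% of 200 genes changed by 2-fold at 1 Hz were recovered among 12899 genes. The changed genes were drawn only from those above a minimum expected count, and every gene was given the same spread. The share recovered therefore does not apply to genes with low counts, such as Ptx3, or with a wide spread, such as Cxcl1. No 2 libraries of the 276 pairs held identical counts.

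The 10 genes, the gene lists, and the motifs were chosen with earlier results of these data known. Text names all 10 genes, the 2 called genes of each list with the smallest p per frequency and direction, all receptors by level, and the 5 genes most like Il6 and Ptx3. The other list genes were named after their values were seen. Replicate numbers did not pair samples.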

Additional observations from a re-analysis of the deposited data

Results flagged for a closer look

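In 2 of 40 groups of 6 libraries (10 genes in 4 conditions), 1 library stood apart from the others by Dixon's criterion, where chance gives about 1 in 20. Ccl2 in control replicate 3 was 1.69 CPM, while the other controls held 4.04 to 5.25 CPM. Cxcl5 in control replicate 1 was 2.26 CPM, while the other controls held 1.32 to 1.60 CPM. The criterion was applied to CPM rather than to log2 values. The 1 Hz library with the lowest Cxcl1, replicate 5, did not meet it. On the log2 scale that library deviated from the mean of its condition by -3.33 for Cxcl1 and -2.74 for Ccl2.

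Of 30 differences between frequencies, 10 were past the threshold in the edgeR test of the difference itself. They rest on the contrasts from which the genes were chosen and are given as values. At 10 Hz against 1 Hz, the log2(fold change) was -1.55 for Il6, -0.87 for Ptx3, -1.15 for Il15, and -0.83 for Ccl7. At 10 Hz against 4 Hz it was -1.96 for Il6, -1.03 for Ptx3, -1.71 for Cxcl1, -1.28 for Il15, -1.0 for Ccl7, and 0.88 for Lif. All libraries at 10 Hz serve both comparisons.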

How the results depend on the processing

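Of 570 values of log2(fold change) of the 10 genes under alternative settings, 561 moved by less than 1 SD between replicates. The other 9 moved by more, and 0 values past the threshold in the reported fit changed sign. Lost calls are not counted in that 0. Among values not past the threshold, the sign turned in some settings for Ccl7, Cxcl1, and Cxcl12 at 10 Hz and Cxcl12 at 4 Hz. Il6, Ptx3, and Il15 kept their calls at 1 and 4 Hz in all 19 settings, as did Lif and Ccl7 at 4 Hz. At 1 Hz, 3 of the 10 genes rather than 5 were past the threshold with only 2 groups in the fit. In that fit, 1865 of all 12915 genes were past it. The count among the 10 ran from 4 to 8 when 1 library was left out, with 8 without 1 Hz replicate 5. Over all genes, 2436 of 13401 were called without that library, against 1988 of 13315 with it. At 4 Hz the count among the 10 genes was 5 rather than 8 on log2(TPM + 0.1), where Ccl2, Cxcl1, and Cxcl5 lost their calls. Of the genes in the 5 lists, 7 to 14 rather than 11 were called at 1 Hz when 1 library was left out, with 7 where replicate 3 or 5 of the control or replicate 2 or 4 of 1 Hz was absent. The count over all genes at 1 Hz ran from 1651 to 2436 when 1 library was left out. At 4 Hz, 25 genes of the lists rather than 16 were called on log2(TPM + 0.1). Over all genes, that count was 3873 of 13422 rather than 3344 of 13315. The causes were not tested. Samples with the same replicate number did not vary together, with a median r of -0.0203 over 36 pairs. With the replicate block, 4 of the 10 genes were called at 1 Hz, 7 at 4 Hz, and 0 at 10 Hz. Over all 13315 genes, that fit called 1904 at 1 Hz, 3284 at 4 Hz, and 3 at 10 Hz. Depth limits Ptx3, at 11 to 30 counts in controls, and Cxcl5, at 14 to 27.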
